A study of Mus musculus with 60 samples.

Results

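Circular RNAs (circRNAs) from the Ogdh region were taken as every entry of 5 organ tables that lay wholly between bases 6240000 and 6310000 of chromosome 11 (mouse build GRCm39). The rule found 3 circRNAs among 2799 different ones, and they made up 10 of 4724 table entries. The region was chosen by the heart abundance of 1 of them, entered as 11:6263788|6267080 (chromosome, start and end), which has the highest mean normalized count of the heart table. Its heart abundance is therefore a description and is not tested, whereas the genotype comparison played no part in the choice. The tables come from circRNA sequencing of whole heart, liver, kidney, brain and spleen of male mice aged 4 months. The groups were 3 Ftsj1-deficient mice (labelled Ftsj1_DF, with no allele named in the labels) and 3 wild-type mice (WT), none of them treated. All mice belonged to a set of 4 brothers or a pair of 2 brothers, and each set held both genotypes. The 30 combinations of organ and mouse each gave 2 samples, titled batch 1 and batch 2, which makes 60 samples. The titles do not say whether the batches are runs of the same library or separate libraries. No values of single libraries were analysed here, so depth is unknown and the spread between mice cannot be given. The error used is the SE that the authors' deposited tables hold for each fold change. The headers do not say which genotype is the numerator, so signs are as deposited and give no direction for either genotype.

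A circRNA forms when the splicing machinery joins the end of an exon back to the start of the same or an earlier exon, and reads across that back-splice junction identify it. Ogdh encodes the first, thiamine-dependent subunit (E1) of the mitochondrial 2-oxoglutarate dehydrogenase complex, which turns 2-oxoglutarate into succinyl-CoA in the tricarboxylic acid cycle. Dlst and Dld encode its other subunits. Heart muscle, rich in mitochondria, relies on this cycle for oxidative energy supply. Ftsj1 encodes an X-linked methyltransferase that adds 2'-O-methyl groups to the anticodon loop of tRNAs.

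The tables hold positions and no gene names, and the gene annotation at hand (GENCODE M21) uses another build, GRCm38. The host was therefore checked by spacing alone, without moving a position between builds. The leader's 2 ends lie 3292 bases apart, and 194 of 55450 annotated genes have an exon start and an exon end at that distance. A second circRNA of the region shares the leader's start and ends at 6274922. Only 1 gene, Ogdh, had an exon start followed at the right distances by both ends, those 3 boundaries being the start of exon 3, the end of exon 4 of Ogdh-201 and Ogdh-204, and the end of exon 5 of Ogdh-203. In GRCm38 that annotation places Ogdh (ENSMUSG00000020456.17) on the plus strand of chromosome 11 from 6291633 to 6356642, and exon 3 at 6313788 to 6313979. All of these exons are annotated as coding. The leader is called the exon 3-4 circRNA below, and the circRNA ending at 6274922 the exon 3-5 circRNA. The third member, from 6261009 to 6267080, shares the end of the exon 3-4 circRNA and starts 2779 bases before it. No Ogdh exon start is annotated at that distance, and the nearest one upstream, that of exon 2, lies 16836 bases before exon 3. This member is called the upstream-start circRNA.

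**Figure D1:**
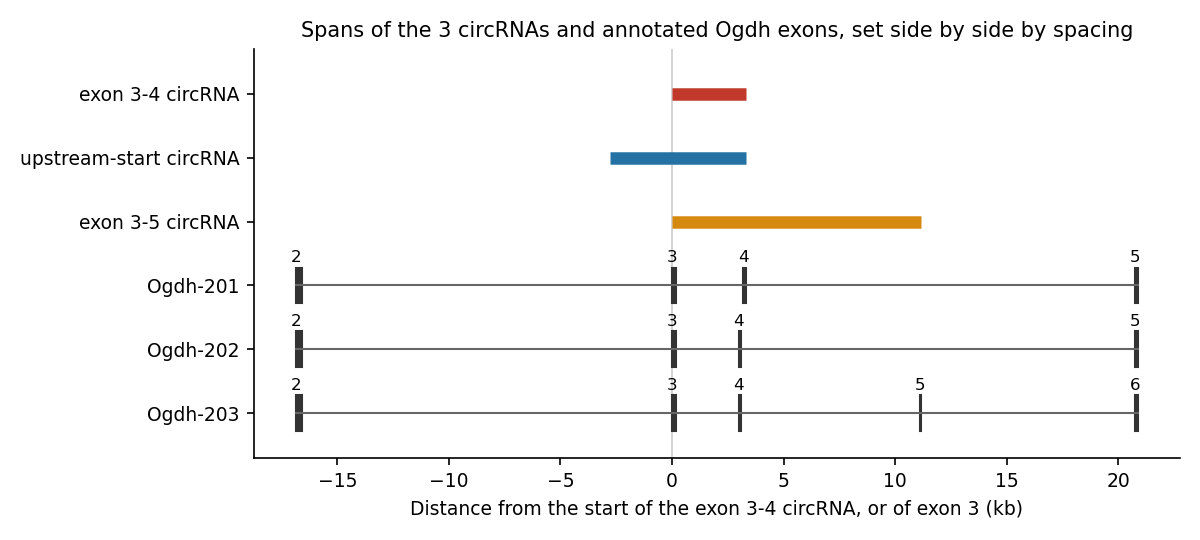
Bars show the genomic spans of the 3 circRNAs, and boxes the exons numbered within 3 Ogdh transcripts, on a common axis of distance in kb from the start of the exon 3-4 circRNA (circRNAs, GRCm39) or of exon 3 (transcripts, GRCm38). The exon 3-4 and exon 3-5 circRNAs begin with exon 3 and end with exon 4 of Ogdh-201 and exon 5 of Ogdh-203, while the start of the upstream-start circRNA meets no exon.

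Reference sequences of the exons matched to these ends are shown, with the other form of exon 4 beside them. All were read from the transcripts of GENCODE M21 by exon order, 5' to 3'. The junctions were joined from these exons on the match by spacing and were not read from the circRNAs themselves. In the junction sequences lower case is the last 20 bases of the final exon and capitals are the first 20 bases of exon 3, joined in an order that linear Ogdh RNA does not have. In the run of exons 3 and 4, capitals mark the first and the last 15 bases, which meet when the circle closes.
Back-splice of the exon 3-4 circRNA: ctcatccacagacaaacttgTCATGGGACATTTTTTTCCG
Back-splice of the exon 3-5 circRNA: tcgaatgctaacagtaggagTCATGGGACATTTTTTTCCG
Exons 3 and 4 of Ogdh-201: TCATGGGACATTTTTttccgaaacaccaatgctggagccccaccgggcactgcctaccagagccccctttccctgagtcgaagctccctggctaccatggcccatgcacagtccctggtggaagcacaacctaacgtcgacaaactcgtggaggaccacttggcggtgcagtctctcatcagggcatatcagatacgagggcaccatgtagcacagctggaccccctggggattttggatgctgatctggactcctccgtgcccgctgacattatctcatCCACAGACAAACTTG
Exon 4 of Ogdh-201: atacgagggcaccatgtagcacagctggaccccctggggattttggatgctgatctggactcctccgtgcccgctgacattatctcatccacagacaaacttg
Exon 4 of Ogdh-203: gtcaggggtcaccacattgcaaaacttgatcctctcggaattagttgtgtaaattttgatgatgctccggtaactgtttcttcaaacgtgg
Exon 5 of Ogdh-203: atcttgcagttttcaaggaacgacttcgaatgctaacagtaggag

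Exon 3 has 192 bases and exon 4 of Ogdh-201 has 103, so a circle of just these exons would hold 295 bases, with a GC content of 56.3%. That length leaves 1 base over when divided by 3. Ogdh-202 and Ogdh-203 carry another form of exon 4, with 91 bases and 42.9% GC against 54.4% in Ogdh-201. Ogdh-203 alone has the 45-base exon 5 at which the exon 3-5 circRNA ends, and a circle of its exons 3 to 5 would hold 328 bases. The form of exon 4 in Ogdh-202 ends 3067 bases after the start of exon 3, and 0 listed circRNAs ended there with either of the starts seen in the region. The tables give only the ends of a circle, so which exons lie inside was not measured. Spans on the genome, introns included, were 3293 bases for the exon 3-4 circRNA, 6072 for the upstream-start circRNA and 11135 for the exon 3-5 circRNA. The first is shorter than the heart median of 4964.5 bases, and the last is longer than the brain median of 6092.5.

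The exon 3-4 circRNA was listed in all 5 organs and was far more prominent in some than in others. In heart it ranked 1 of 664 with a mean normalized count of 164.3 in the authors' deposited table. This mean pools both genotypes. The next heart circRNA, on chromosome 10 at 120661013 to 120687997, stood at 82.7 in the authors' deposited table, and the one after it, on chromosome 7 at 58890715 to 58896965, at 80.9. The leader thus exceeded the runner-up 1.99-fold and alone held 4.00% of all mean normalized counts of heart added up. In kidney it ranked 8 of 996, at 65.5 in the authors' deposited table. Liver placed it at 29 of 900, with 92.1 in the authors' deposited table. In spleen it ranked 49 of 308 at 9.60, and in brain 128 of 1856 at 23.1, in the authors' deposited tables. The corresponding share was 0.970% in kidney, 0.486% in liver, 0.449% in spleen and 0.150% in brain.

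Each table was normalized by itself, so sizes are not compared between organs, and ranks depend on how many circRNAs a table lists. Among the 133 circRNAs listed in all 5 organs, the exon 3-4 circRNA ranked 1 in heart, 6 in kidney, 13 in liver, 42 in spleen and 57 in brain. The order from heart down was thus kidney, liver, spleen and brain on this common set. By percentile within the whole table brain and spleen stood the other way round, 93.1 in brain and 84.3 in spleen. Without values per mouse, it is unknown which neighbours in that order differ beyond the spread between mice. In whole organs, fewer cells of a type and less of the circRNA per cell cannot be told apart.

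**Figure D2:**
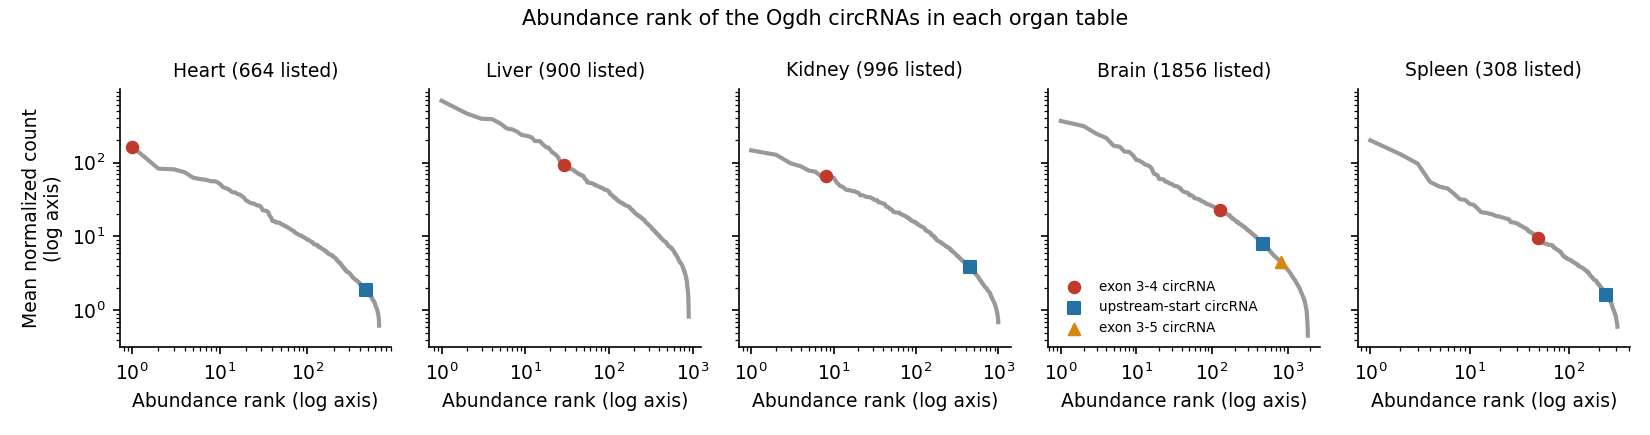
Each panel plots the mean normalized count of every circRNA of an organ table (log axis) against its abundance rank (log axis), with the 3 Ogdh circRNAs marked. The exon 3-4 circRNA stands at rank 1 in heart, 8 in kidney, 29 in liver, 49 in spleen and 128 in brain, and the other members lie far lower on the curves of the 4 organs that list any.

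The upstream-start circRNA was listed in 4 organs and was not in the liver table. Its mean normalized count in the authors' deposited tables was 1.90 in heart (rank 469 of 664), 3.83 in kidney (rank 450 of 996), 7.87 in brain (rank 479 of 1856) and 1.60 in spleen (rank 238 of 308). It stood highest in its list in brain, at percentile 74.2, against 54.9 in kidney, 29.4 in heart and 22.9 in spleen. The exon 3-5 circRNA was listed in brain alone, at 4.46 and rank 821 of 1856 in the authors' deposited table. A missing entry does not show absence, because the authors removed low expression by a limit that the sources used here do not state. The lowest mean normalized count listed in the authors' deposited tables was 0.623 in heart and 0.825 in liver, where the exon 3-4 circRNA stood 112-fold above that lowest value.

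The balance between the members differed widely among organs as described by these means. In heart the exon 3-4 circRNA was 86.7-fold more abundant than the upstream-start circRNA and made up 98.9% of the counts of the region. The same ratio was 17.1 in kidney and 6.02 in spleen, with shares of 94.5% and 85.7%. In brain it was 2.94, and the 65.2% of the exon 3-4 circRNA stood beside 22.2% for the upstream-start and 12.6% for the exon 3-5 circRNA. Brain was also the only organ that listed all 3. Both means of a ratio come from the same libraries, but they carry no error in the tables, so these ratios were not tested. The heart and spleen ratios divide by low means, 1.90 and 1.60, where the lowest listed were 0.623 and 0.602 in the authors' deposited tables. Selection by heart abundance also favours a high ratio in heart. In heart, 71 groups of overlapping circRNAs held at least 2 members, and the leading member took a median of 67.2% of a group. The Ogdh group had the highest such share in heart, which its selection as heart leader favours. In kidney 7 of 124 groups had a higher share, in spleen 3 of 26, and in brain 138 of 248, where the median was 67.7%.

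**Figure D3:**
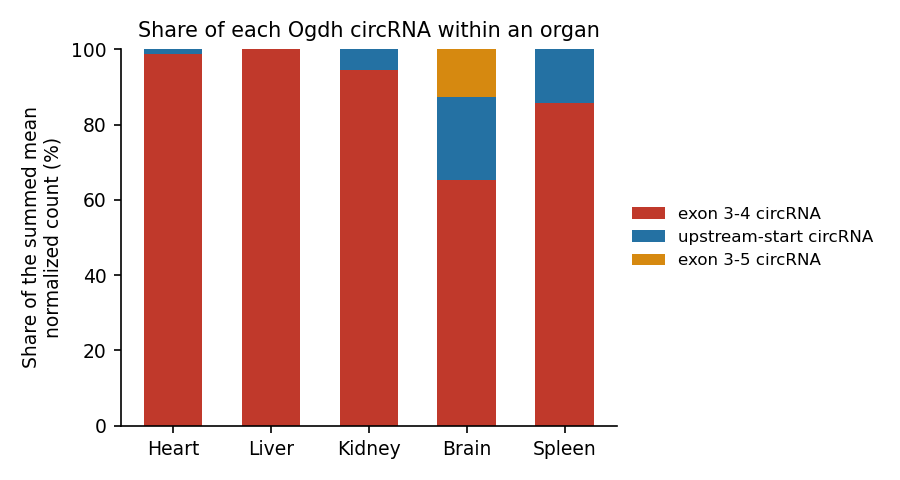
Stacked bars give the share of the summed mean normalized count of the Ogdh region that each circRNA holds within an organ, in percent. The exon 3-4 circRNA fills 98.9% of the bar in heart and 65.2% in brain, and the liver bar is whole because that table lists no other member.

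The genotype comparison asked whether these circRNAs differ between Ftsj1-deficient and wild-type mice. In heart, the exon 3-4 circRNA had a log2 fold change of -0.01 (SE 0.23, 95% interval from -0.45 to 0.43, adjusted p = 0.996 by the DESeq2 test) in the authors' deposited table. On the linear scale that interval runs from 0.730-fold to 1.35-fold. Its SE was the smallest of all 664 heart circRNAs, where the median SE was 1.56. A change of 2-fold in either direction thus lies outside the 95% interval in heart, as far as the deposited SE holds for separate mice.

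The same circle was measured less closely in the other organs, and no interval excluded 0. The authors' deposited table for liver held a log2 fold change of -0.60 (SE 0.60), and the interval reached from -1.78 to 0.59. Kidney had -0.21 (SE 0.84) in the authors' deposited table, with -1.85 and 1.43 as bounds. For brain, -0.43 (SE 1.26) was listed in the authors' deposited table, with bounds of -2.91 and 2.04. In spleen, the authors' deposited table held the value farthest from 0, -1.55 (SE 1.49), and the interval was the widest, with bounds of -4.47 and 1.36. The kidney, brain and spleen intervals span changes above 2-fold in both directions, and the liver interval does so on the negative side. A 2-fold difference could thus have been missed in each of these 4 organs.

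The less abundant members gave wide intervals throughout. For the upstream-start circRNA in brain, the authors' deposited table held -1.87 (SE 1.88), and the interval had bounds of -5.56 and 1.82. In heart it had -0.17 (SE 1.88), in kidney -0.35 (SE 1.51) and in spleen -0.83 (SE 2.16) in the authors' deposited tables. The exon 3-5 circRNA stood at -0.04 (SE 1.67) in the authors' deposited brain table, with bounds of -3.31 and 3.24. Although the upstream-start and exon 3-4 circRNAs share an end, their heart SEs of 1.88 and 0.23 mean that the comparison in heart is informative for the latter alone.

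**Figure D4:**
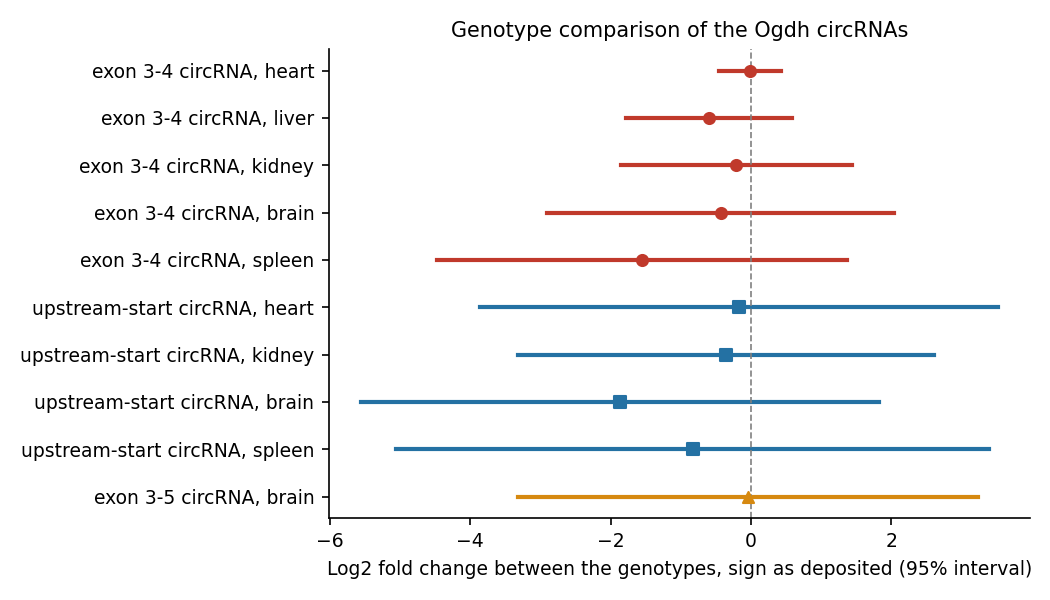
Points are the deposited log2 fold changes between the genotypes for the 10 entries and lines their 95% intervals (log2 fold change ± 1.96 SE), with the sign as deposited. Every line crosses 0, and the line of the exon 3-4 circRNA in heart, from -0.45 to 0.43, is the shortest.

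In all, 0 of the 10 entries passed an adjusted p of 0.05 in the authors' DESeq2 test, and 0 had an unadjusted p below 0.05. The share of all circRNAs tested that passed the adjusted threshold was 0% in heart, kidney, brain and spleen and 0.113% in liver. Tested here means having a p-value. In liver 313 of the 900 circRNAs held no adjusted p and could not pass. Below the unadjusted threshold it was 2.86% in heart, 9.06% in liver, 1.82% in kidney, 2.05% in brain and 2.05% in spleen, so 0 among so few entries is near the background. The smallest p of an entry was 0.297, that of the exon 3-4 circRNA in spleen, in the authors' deposited table. All 10 entries had a negative log2 fold change. Negative values made up 44% of all tested circRNAs in heart, 57.6% in liver, 41.9% in kidney, 55% in brain and 62.7% in spleen. The entries come from the same 6 mice and 3 overlapping circles, so their signs are not independent, and none differed from 0 beyond its error. The medians over the members, beside those over the tables, were -0.09 and 0.12 in heart and -0.28 and 0.20 in kidney. They were -0.43 and -0.14 in brain and -1.19 and -0.55 in spleen. Liver listed 1 member, at -0.60 beside a table median of -0.22. The member medians rest on only 2 circRNAs in heart, kidney and spleen and 3 in brain, and a shift was not tested.

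Whether the genotype difference itself varied among organs was tested as the difference of 2 deposited log2 fold changes over their joint error, for all 3341 pairs of organs in which a circRNA had both estimates. The Ogdh region gave 16 of these, 10 of them for the exon 3-4 circRNA. None passed after Benjamini-Hochberg adjustment or had an unadjusted p below 0.05, where the shares over all pairs were 0% and 3.44%. The smallest p belonged to heart minus spleen for the exon 3-4 circRNA, a difference of 1.54 log2 units (SE 1.50, interval from -1.41 to 4.49, normal approximation on the deposited errors, adjusted p = 1.00). For heart minus liver the difference was 0.58 (SE 0.65), with an interval from -0.68 to 1.85. The same mice gave all organs and the tests leave their covariance out.

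The error of the exon 3-4 circRNA was then set beside that of circRNAs of like abundance. The 10 heart circRNAs nearest in abundance to the exon 3-4 circRNA, with means from 46.2 to 82.7, had SEs from 0.26 to 0.40. In brain the 10 nearest had means from 22.8 to 23.7 and a median SE of 1.42, close to the 1.26 of the exon 3-4 circRNA. The corresponding medians were 0.60 in liver, 0.78 in kidney and 1.54 in spleen, against 0.60, 0.84 and 1.49 for the circle itself. In each of these 4 organs its SE lay within the range of the 10 neighbours, and in heart it lay below all of them, none of which was as abundant. Among the 133 circRNAs listed everywhere, 0 had a smaller SE in heart, 12 in kidney, 17 in liver, 24 in spleen and 42 in brain.

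**Figure D5:**
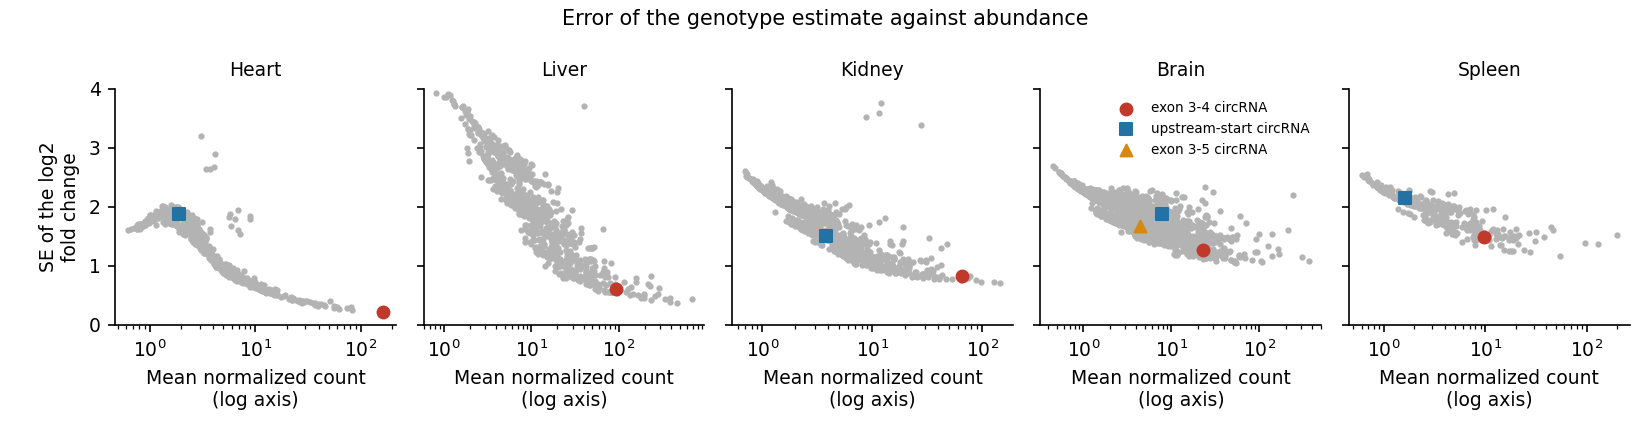
Each panel plots the SE of the deposited log2 fold change against the mean normalized count (log axis) for every circRNA of an organ, with the Ogdh circRNAs marked. The exon 3-4 circRNA lies at the lower right end of the heart panel, at an SE of 0.23, and within the cloud at 1.26 in brain and 1.49 in spleen.

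The circRNAs most like the exon 3-4 circRNA in their abundance percentiles over the 5 organs were sought among the other 132 listed everywhere. Likeness was the Euclidean distance of the percentiles, whose median over the 132 was 49.5. The nearest, at 4.86, lay on chromosome 11 from 98154296 to 98158684. It ranked 21 in heart, 27 in kidney, 53 in liver, 131 in brain and 43 in spleen. Next came chromosome 7 from 99584369 to 99604747, at 9.43, and chromosome 3 from 135361261 to 135375100, at 10.95. In heart these 3 had mean normalized counts of 29.8, 28.8 and 46.2 in the authors' deposited table, well below the 164.3 of the Ogdh circle. All were high in heart, at percentiles from 96.8 to 98.4, which the distance favours because it includes the heart percentile. Their lower heart counts follow from the Ogdh circle having the highest count of that table.

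The nearest circRNAs outside the region were looked up on each side, and how densely the neighbourhood is filled was not measured. Distances were taken from the outermost ends of the members, 6261009 and 6274922, and not from the bounds of the region. The nearest listed one below lay 117.5 kb away, at 6143154 to 6143476, and was listed in all 5 organs. Its mean normalized count in the authors' deposited tables was 2.51 in heart, 5.01 in liver, 6.89 in kidney, 14.9 in brain and 3.70 in spleen. The nearest above lay 259.6 kb away, at 6534520 to 6535217, and was listed in heart and spleen alone. It stood at 1.23 in heart and 3.77 in spleen in the authors' deposited tables. In heart the neighbours below and above ranked 374 and 593.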

How the data were processed

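CircRNA libraries of 5 organs from 3 Ftsj1-deficient and 3 wild-type mice were prepared, per the labels' protocols, from RNA depleted of ribosomal RNA, polyadenylated and digested with RNase R, which removes linear RNA. Build GRCm39 and the tools DESeq2 and BWA (0.7.17-r1188) are listed in the submitters' processing notes. How circRNAs were called, which model was fitted and how the 2 batches of a mouse and organ were combined is not stated there. If batches entered the model as separate samples, the errors would be too small. Per the file headers, each deposited table gives a mean normalized count (an abundance signal), a log2 fold change with its SE, a Wald score, a p-value and an adjusted p-value. These column names are the ones DESeq2 writes, and its test is read as the authors'. The score equalled the log2 fold change over its SE in every row. The authors' test was described, with 95% intervals of 1.96 SE, and calls were made at an adjusted p below 0.05. Differences between organs were computed with scipy 1.17.1 (Python 3.11.15), and the calculation was tried on simulated estimates. Those had SEs far smaller than the deposited ones, large differences placed in heart alone, and organs drawn independently. The trial therefore does not show what the test can detect at the deposited errors. All members were named, and the likeness, neighbour and nearest-outside rules named the rest. Members and lists were chosen with earlier results of these data known. Lists of tricarboxylic acid cycle genes and of organ markers were not used, since no GRCm39 annotation was used here, so organ labels were not checked against marker genes. Sequences and exons come from GENCODE M21 (GRCm38). Alternatives were a t distribution, a minimum mean of 5, adjustment over all tables, and other ranked sets and windows.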

Additional observations from a re-analysis of the deposited data

How the results depend on the processing

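The 11 alternatives tried gave the same results, but most of them could not have done otherwise. The fold change is not altered by a t distribution or another adjustment. A t distribution only raises a p-value, an adjusted p is never below the unadjusted one, and a minimum mean only removes entries. With a smallest unadjusted p of 0.297 in the authors' DESeq2 test, the counts of 0 could not rise. With a t distribution of 4 degrees of freedom, a value chosen for 3 mice against 3, the interval of the exon 3-4 circRNA in heart widened to -0.64 to 0.62. It uses the same deposited SE, so it does not correct an SE that counted the 2 batches of a mouse as separate samples. Its adjusted p in heart ran from 0.996 to 1.00 over the alternatives. Counts of Ogdh entries past the adjusted or unadjusted threshold remained 0 with the t distribution, over the 5 tables together, and among the 6 of 10 entries with a mean normalized count of at least 5. The heart rank of 1 was the value used for selection, so it lends no support. It cannot change among circRNAs listed everywhere, which are part of the same table, and it was also 1 among loci. The region held 3 circRNAs whether they had to lie inside it or to overlap it. Leaving out mice or batches was not run, because values per sample were not analysed here. No paired analysis was possible because values per mouse were not analysed here. The depth per sample is unknown, and in liver, kidney, brain and spleen the SE limits what could be seen, with 95% intervals that reach beyond a 2-fold change. The host assignment rests on spacing in another build, and the upstream-start circRNA has 1 end without a matching exon.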

Other observations

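The circRNA that leads each organ table differed in how widely it was prominent. The Ogdh exon 3-4 circRNA, first in heart, ranked from 8 to 128 in the other organs. The liver leader, on chromosome 7 at 58890715 to 58896965, ranked from 3 to 30 elsewhere. The brain leader, on chromosome 1 at 87291826 to 87307730, ranked from 2 to 10. The kidney leader, on chromosome 5 at 89528172 to 89537469, was listed elsewhere only in liver, at rank 632. The spleen leader, on chromosome 11 at 11650205 to 11657904, ranked from 3 in brain to 134 in kidney. These leaders were chosen by their ranks, so no test was made.

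The Ogdh exon 3-4 circRNA was 1 of 7 circRNAs with a negative log2 fold change in all 5 of the authors' deposited tables, among 133 listed everywhere (5.26%), and 6 had a positive one throughout. The organs come from the same mice, and no single estimate of the Ogdh circle differed from 0 beyond its error.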
